A study of Mus musculus with 32 samples.

Results

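The genes that encode the proteasome and its own helpers were followed through liver regeneration and liver development in the mouse. Members were all genes whose platform symbol begins with Psm, then a letter from a to g and a digit, and each was read from its single-gene probe set of highest mean over the 32 arrays. The rule gave 49 of 18194 genes. They were 7 alpha and 7 constitutive beta subunits of the 20S core, the 3 immunoproteasome beta subunits (Psmb8, Psmb9 and Psmb10), a testis alpha form (Psma8), a thymus beta form (Psmb11), 6 ATPases and 11 non-ATPases of the 19S cap, 3 cap and 4 core assembly chaperones, 3 activators and 1 inhibitor. A further 2 members, Psmc3ip and Psme3ip1, share only the letters of the symbol and encode no part of the particle. Without these 2, the tissue forms and the immunoproteasome subunits, 42 members remained, called the general proteasome genes here. Psme2, a partner of Psme1, shares its probe set with a second gene and is not analysed here.

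RNA of whole liver was measured on Affymetrix Mouse Genome 430 2.0 arrays, whose probe sets give 1 brightness per transcript. Adult liver came from CD-1 females of 10 weeks, an outbred stock, either unoperated (time 0) or killed after 1, 2, 6 or 12 h, or later after 18, 24, 30, 48 or 72 h, following removal of 2/3 of the liver together with the gallbladder. Operated animals had ketamine and xylazine anaesthesia and buprenorphine for pain. Embryonic CD-1 liver was taken in daily steps from 10.5 to 14.5 days post conception, and once more at 16.5 days. Stages were read from the titles and source names, since other label fields of the embryonic samples conflict with them. Each of the 16 groups had 2 arrays, and each array held a pool of at least 3 tissues from different animals. There was no sham operation, so surgery and loss of tissue cannot be told apart. Limma p-values measure only the spread between such pools. The permutation p-values of the catalytic pairs instead measure the spread between group means. Those groups are different times or stages and not replicates of 1 condition. In whole tissue, fewer cells of a type and less RNA per cell cannot be told apart.

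The 26S proteasome is the main protease of the cytosol and nucleus. A barrel, the 20S core, encloses the catalytic sites of its beta subunits, and the 19S cap binds ubiquitin-tagged proteins, removes the tag, unfolds the chain with its ATPases and feeds it into the barrel. Interferon gamma replaces the constitutive catalytic subunits Psmb6, Psmb7 and Psmb5 by Psmb9, Psmb10 and Psmb8, which gives the immunoproteasome, known for making peptides for presentation on MHC class I. In liver this form is known from resident immune cells and from hepatocytes exposed to interferon.

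Some arrays stood apart before any result was read. The log2 ratio of 3' to 5' probe sets, which grows as RNA breaks down, reached 1.25 for Gapdh and 2.50 for Actb in the second pool of 48 h. The first pool of 10.5 days had 1.49 and 0.91. The second pool of 12 h had 0.30 and 1.40, which lay within the range of the remaining adult arrays. Of those, only the arrays of 2 h (0.20 and 0.32) also had a Gapdh ratio above 0. The other 18 adult arrays lay between -0.44 and 0.32 for Gapdh and between 0.57 and 1.74 for Actb, and the other 11 embryonic arrays between -0.43 and -0.17 and between 0.34 and 0.64. Of the members, 46 of 49 were lower on the second array of 48 h than on the first, beside 58.5% of all genes. The hepatocyte markers Alb, Ttr, Cyp2e1, Apoa1 and Cps1 summed to signals of 26636 to 48941 in adult and 5216 to 24080 in embryonic arrays, with Alb at 956 or more on every embryonic array and Cyp2e1 at no more than 93.2 on any. Erythroid markers (7 genes) summed to 613 to 1184 in adult and 2746 to 25034 in embryonic liver, and markers of dividing cells (6 genes) to 190 to 2367 and 7881 to 13553.

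Embryonic liver carried more RNA of nearly every general proteasome gene than adult liver, while the immunoproteasome genes Psmb8 and Psmb9 were far lower. Over the mean of the 6 stages against the mean of the 10 adult groups, 43 of 49 members were higher and 3 lower at an adjusted p under 0.05 (limma over all genes, Benjamini-Hochberg), beside 39.7% of all genes higher and 37.1% lower. The median change of the members was 0.86 on the scale of log2(signal + 16), against 0.01 for all genes. Of the 42 general proteasome genes 40 rose and 0 fell, with a median of 0.91. In 17 members every embryonic array lay above every adult array, beside 14.8% of all genes, in 2 members (Psmb8 and Psmb9) every embryonic array lay below, beside 7.47%, and in 30 the arrays overlapped. Against time 0 alone, 40 members were higher and 3 lower, beside 30.5% and 24.6% of all genes. Erythroid and dividing-cell markers moved with this contrast. The Actb 3' to 5' ratio differed too, at 0.34 to 0.64 on 11 embryonic and 0.57 to 1.74 on 18 adult arrays, leaving aside those set apart above. The part of cell types and of RNA quality in it was not tested.

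**Figure D1:**
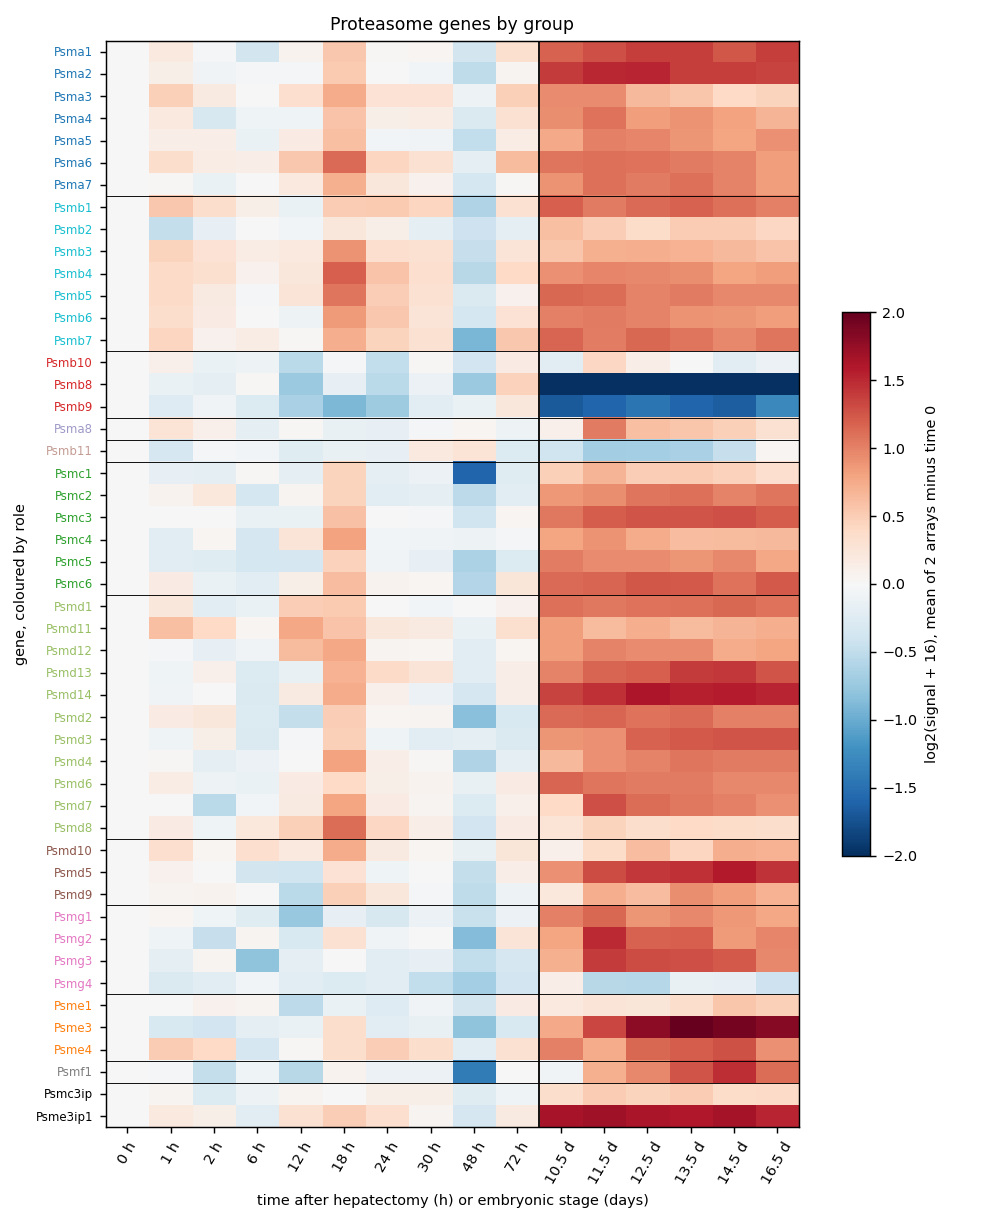
Change of each of the 49 members (rows, coloured and grouped by role) in each of the 16 groups (columns), as the mean log2(signal + 16) of 2 arrays minus that of time 0. Colours are cut at -2 and 2, which hides the full depth of Psmb8 in the embryo. Most rows are red across the 6 stages, Psmb8 and Psmb9 are blue, and within the adult groups 18 h is the reddest column and 48 h the bluest.

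Among the alpha subunits, which form the outer rings of the barrel, all 7 rose in the embryo, with a median of 0.85. Psma2 had the largest rise. Its signal ran from 263 over a median of 558 to 1020 in the 20 adult arrays and from 1449 over 1548 to 1710 in the 12 embryonic arrays, a change of 1.43 (SE 0.10, limma adjusted p = 9.03e-12). All embryonic arrays lay above all adult arrays. Psma3 rose least, by 0.38 (SE 0.09, limma adjusted p = 5.00e-04), its arrays overlapped, and with the mean of its probe sets the change was 0.03, which was not called.

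All 7 constitutive beta subunits rose as well, by 0.41 (Psmb3) to 0.91 (Psmb1), with a median of 0.74. Adult and embryonic arrays overlapped in all of them but Psmb1, a structural member of the inner rings: its adult signals reached 1570 at most and its embryonic signals began at 1657. A weaker probe set of Psmb1 went the other way, with a log2 change of -0.675.

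In the cap, all 6 ATPases rose (median 1.09), led by Psmc3 with a change of 1.22 (SE 0.10, limma adjusted p = 2.08e-10). Its signals were 279 to 929 in adult arrays with a median of 502, and 1052 to 1307 in embryonic arrays with a median of 1184. The groups did not overlap. Of the 11 non-ATPases 10 rose (median 0.97). Psmd14, the enzyme that cuts ubiquitin chains from substrates, was at 327 to 927 in the adult (median 460) and at 1199 to 1520 in the embryo (median 1392), a change of 1.48 (SE 0.07, limma adjusted p = 4.01e-14) with no overlap. Psmd8 was not called: its change was 0.14 (SE 0.11, limma adjusted p = 0.243), and its adult signals of 277 to 1516 enclosed the embryonic ones of 669 to 885.

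The assembly chaperones, which build the particle but are not part of it, gave 6 called rises among 7. The cap chaperone Psmd5 had adult signals of 130 to 315 (median 218) and embryonic signals of 431 to 746 (median 631). This was a change of 1.44 (SE 0.07, limma adjusted p = 5.48e-14) without overlap. Psmd9 and Psmd10, the other cap chaperones, rose by 0.70 and 0.30. Of the 4 core chaperones, Psmg1, Psmg2 and Psmg3 rose by 1.16, 1.20 and 1.38. Psmg4, which pairs with Psmg3 to place alpha subunits, showed a change of 0.00 (SE 0.10, limma adjusted p = 0.996). Its highest embryonic signal, 971, was on the first array of 10.5 days, while the second was at 394.

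The activators and the inhibitor rose too. Psme3, the nuclear activator PA28 gamma, which opens the barrel without ubiquitin, had the largest rise of all 49 members. Its adult signals were 64.5 to 262 (median 163) and its embryonic signals 288 to 913 (median 732), a change of 1.82 (SE 0.11, limma adjusted p = 2.19e-12) without overlap. A second probe set gave 137 in adult and 572 in embryonic arrays on average, and another went from 116 to 93.7. Psme4 (PA200), another nuclear cap, rose by 0.86 and Psme1, the interferon-inducible PA28 alpha, by 0.45 (SE 0.09, limma adjusted p = 1.68e-04). Psmf1 (PI31), described as an inhibitor of the core, rose by 1.18 (SE 0.17, limma adjusted p = 2.43e-06).

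**Figure D2:**
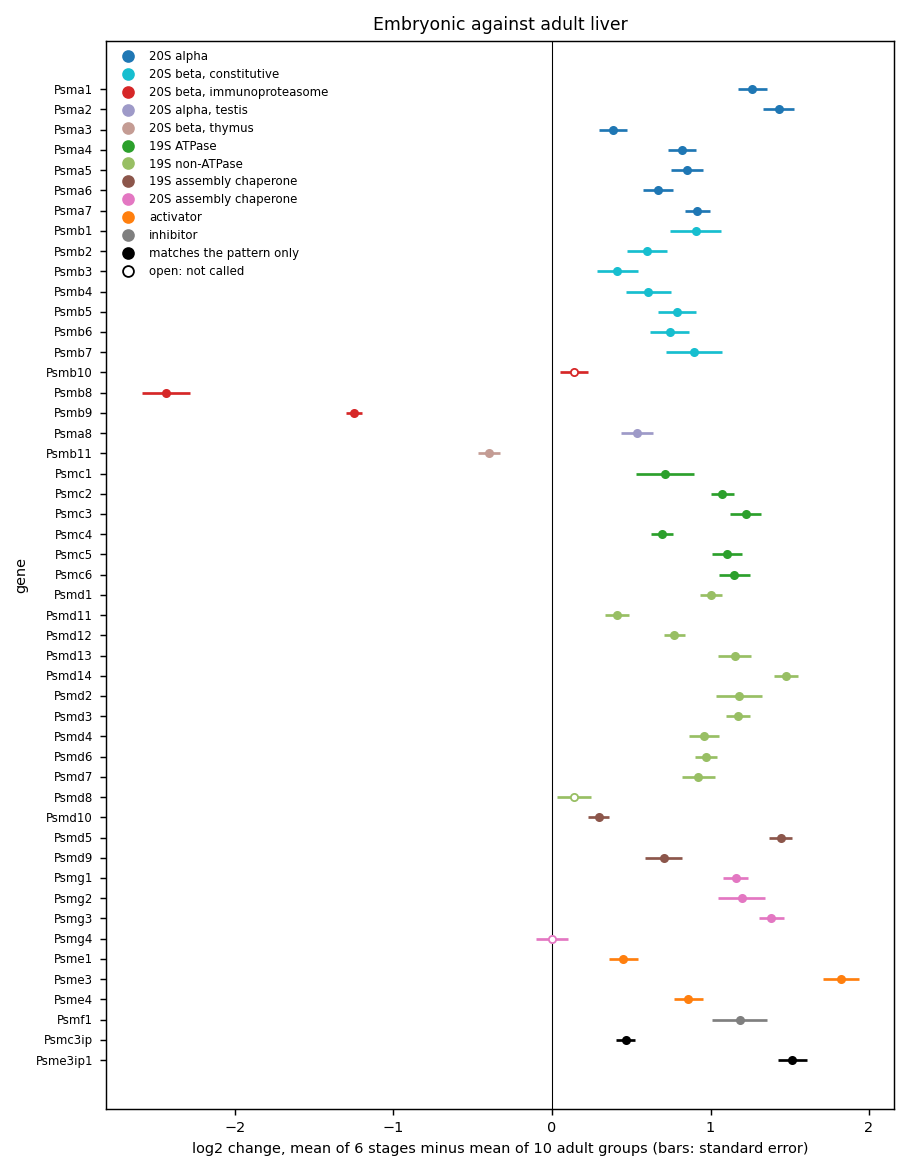
Change of each member between embryonic and adult liver, as the mean of 6 stages minus the mean of 10 adult groups in log2(signal + 16), with its standard error. Colours give the role and open points were not called. Psme3 lies farthest right at 1.82 and Psmb8 farthest left at -2.43.

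The immunoproteasome subunits parted from this. Psmb8 (LMP7), which takes the place of Psmb5, had signals of 55.5 to 308 in the adult arrays (median 191) and of 6.25 to 38.3 in the embryonic arrays (median 21.0). All embryonic arrays lay below all adult arrays, and the change was -2.43 (SE 0.15, limma adjusted p = 2.64e-12). A second, dimmer probe set of Psmb8 went from a mean of 26.7 to 4.01. Psmb9 (LMP2), which takes the place of Psmb6, was at 110 to 268 in the adult (median 194) and at 57.5 to 90.1 in the embryo (median 63.5), a change of -1.25 (SE 0.05, limma adjusted p = 1.62e-15), also without overlap. Psmb10 (MECL-1), which takes the place of Psmb7, did not follow: adult signals of 166 to 425 (median 310) lay across embryonic signals of 258 to 461 (median 319). Its change of 0.14 (SE 0.09, limma adjusted p = 0.145) was not called.

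The constitutive counterparts moved up in the same arrays. Psmb5, the chymotrypsin-like subunit, had signals of 316 to 1515 in the adult (median 744) and 1130 to 1434 in the embryo (median 1257). Psmb6, the caspase-like subunit, was at 389 to 1937 (median 963) and at 1403 to 1734 (median 1592), and Psmb7, the trypsin-like subunit, at 200 to 2005 (median 1223) and 1929 to 2448 (median 2105). Arrays overlapped in all of them, with the adult highs on the first array of 18 h. Their changes were 0.79, 0.74 and 0.90.

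Since brightness cannot be compared between probe sets, each pair was followed by how its log2 difference changed. From the 10 adult group means to the 6 stage means, the difference of Psmb8 minus Psmb5 changed by -3.22, from -1.93 ± 0.52 (SD, n = 10) to -5.15 ± 0.31 (SD, n = 6). An exact two-sided permutation test over the 16 group means gave p = 0.000125, the smallest its 8008 permutations allow, and 0.000188 after adjustment over 3 pairs. Psmb9 minus Psmb6 changed by -1.99, from -2.30 ± 0.60 to -4.29 ± 0.19, with the same exact p and adjusted p. Psmb10 minus Psmb7 changed by -0.76, from -1.87 ± 0.40 to -2.63 ± 0.26 (exact permutation p = 0.00137, adjusted 0.00137). Group means of the first and second pair did not overlap between adult and embryo, while those of Psmb10 and Psmb7 did.

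**Figure D3:**
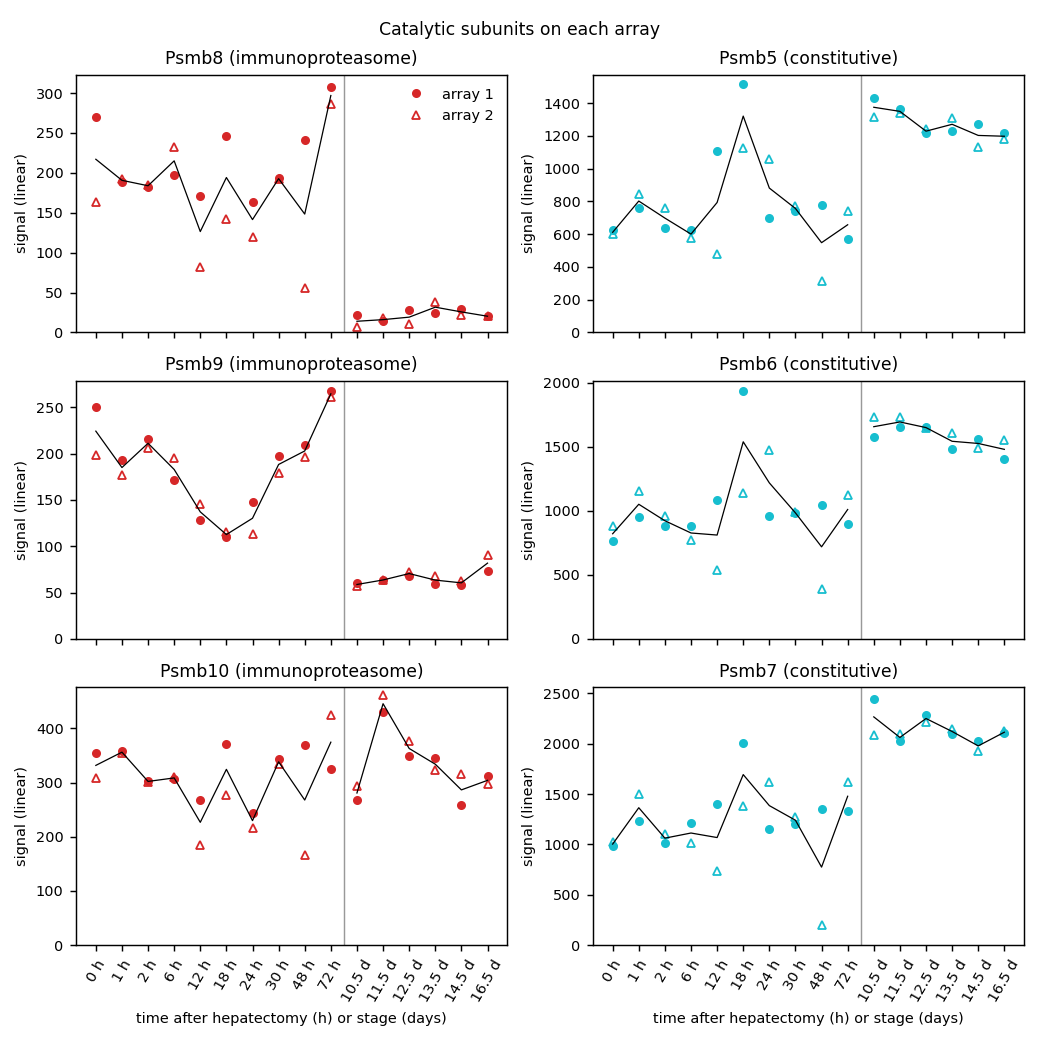
Signal (linear scale) of the immunoproteasome subunits (left) and the constitutive subunits they replace (right) on each of the 32 arrays. Symbols are the 2 arrays of a group and lines join group means. Psmb8 and Psmb9 are lowest in all stages, Psmb9 dips to 110 and 116 at 18 h, and the second array of 48 h is low for Psmb8, Psmb10 and all constitutive subunits.

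Promoters of the catalytic genes that parted are shown because their genes moved in opposite directions. Psmb9 and Psmb8 are neighbours on chromosome 17, with the peptide transporter gene Tap1 between them and Tap2 next to Psmb8. Each run is the 250 bases before the transcript start from RefSeq (GRCm38.p6), 5' to 3' on the strand of the gene. Capitals mark matches, on either strand, to TGACNNNGC (antioxidant response element), GAAANNGAAA (interferon-stimulated response element), TTCNNNGAA (gamma-activated site) or CCAAT. A match is a description of letters only.
Psmb9 (chr17:34187331-34187580, minus strand): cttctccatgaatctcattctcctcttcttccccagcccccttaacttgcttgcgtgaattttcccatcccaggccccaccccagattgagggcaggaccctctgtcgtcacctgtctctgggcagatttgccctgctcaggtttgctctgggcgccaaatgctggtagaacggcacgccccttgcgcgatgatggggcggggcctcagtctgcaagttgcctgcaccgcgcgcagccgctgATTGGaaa
Psmb8 (chr17:34197945-34198194, plus strand): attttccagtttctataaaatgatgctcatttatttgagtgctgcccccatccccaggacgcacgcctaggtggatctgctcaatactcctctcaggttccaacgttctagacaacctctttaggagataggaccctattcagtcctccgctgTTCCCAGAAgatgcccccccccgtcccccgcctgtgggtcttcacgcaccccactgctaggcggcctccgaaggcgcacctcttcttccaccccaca
Psmb5 (chr14:54617996-54618245, minus strand): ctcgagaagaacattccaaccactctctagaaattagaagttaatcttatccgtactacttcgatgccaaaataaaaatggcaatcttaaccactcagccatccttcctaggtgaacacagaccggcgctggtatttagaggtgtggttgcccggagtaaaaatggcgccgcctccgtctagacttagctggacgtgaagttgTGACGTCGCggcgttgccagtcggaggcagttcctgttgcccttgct
Psmb6 (chr11:70525107-70525356, plus strand): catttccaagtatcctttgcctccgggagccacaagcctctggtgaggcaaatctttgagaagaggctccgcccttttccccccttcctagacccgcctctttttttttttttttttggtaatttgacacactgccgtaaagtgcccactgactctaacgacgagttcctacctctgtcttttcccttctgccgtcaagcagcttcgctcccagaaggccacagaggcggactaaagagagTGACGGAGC
The match in Psmb9 is a CCAAT box read on the other strand at -8 to -4, and that in Psmb8 a gamma-activated site at -97 to -89. Those in Psmb5 (-47 to -39) and Psmb6 (-9 to -1) are antioxidant response elements, the letters bound by the factors Nfe2l1 and Nfe2l2. RefSeq promoters were matched for 41 members. Of the 35 general proteasome genes among them, 14.3% held an antioxidant response element (5 genes, Psmc6, Psmd9 and Psmd12 besides the pair shown), against 11.5% of all 27025 genes with a promoter. A CCAAT box was held by 34.3% against 37.5%, an interferon-stimulated response element by 8.57% (3 genes) against 3.46%, and a gamma-activated site by 2.86% (1 gene) against 8.13%.

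Genes of interferon signalling and class I antigen processing were followed beside Psmb8 and Psmb9. Of the 25 measured, 21 fell and 3 rose in the embryo against the adult groups, beside 37.1% and 39.7% of all genes. Their median was -1.03, against 0.01 for all genes. Tap1 and Tap2, which carry proteasome products into the endoplasmic reticulum, fell by 1.03 (SE 0.11) and 1.07 (limma adjusted p = 2.89e-08 and 3.43e-10), and B2m, the light chain of class I molecules, fell by 1.92. Nlrc5, the transactivator of class I genes, went from adult signals of 74.5 to 143 down to 8.67 to 26.8, and Irf1, an interferon-induced factor, fell by 0.53. Ifngr1, Ubd and Ube2l6 were the ones that rose (0.68, 0.56 and 0.70).

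Immune cell markers moved both ways in the same contrast, in which 37.1% of all genes were lower and 39.7% higher. The 11 leukocyte markers summed to 1522 to 3068 in adult and 941 to 2025 in embryonic arrays, with 6 lower and 3 higher. The 9 macrophage markers summed to 3110 to 7441 and 1726 to 4864, with 8 lower and 1 higher. The 8 lymphocyte markers summed to 994 to 1576 and 904 to 1928, with 2 lower, 1 higher and 5 not called. Ptprc, carried by all leukocytes, was at 72.6 to 287 in the adult and 18.4 to 99.6 in the embryo. Clec4f and Vsig4, markers of Kupffer cells, were at no more than 92.7 and 27.1 in any embryonic array. C1qa, of macrophages, went from a median of 471.5 to 174, while Csf1r, also of macrophages, went from 1407 to 1589. At 14.5 and 16.5 days the macrophage markers summed to 4130 to 4864, beside 4058 and 4165 at time 0. Coro1a, of leukocytes in general, was higher in the embryo (72.1 to 421) than on any adult array (at most 67.6), and Laptm5 rose by 0.42. The part of these cells in the fall of Psmb8 and Psmb9 was not tested.

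After hepatectomy the median of the 42 general proteasome genes was near time 0 at 1 to 6 h (-0.04). It was highest at 18 h (0.56) and near time 0 again at 24 to 30 h (0.05). The 7 constitutive beta subunits also had their highest median at 18 h (0.85, with 1 of 7 called), after 0.02 at 12 h. Unlike the general genes as a whole, their median stayed above time 0 afterwards, at 0.49 by 24 h and 0.30 by 30 h. Over the joined times it was 0.22 at 1 to 6 h, 0.38 at 12 to 18 h and 0.39 at 24 to 30 h, with 0 of 7 called in each. At 1 to 6 h against time 0, 0 of 49 members were called by limma (0.945% of all genes), and 0 had an unadjusted p under 0.05. At 12 to 18 h, 4 were higher (Psma6, Psmc4, Psmd11 and Psmd12) and Psmb9 lower, beside 5.22% and 4.81% of all genes; the median of the 42 general genes was 0.28, against 0.01 for all genes. Limma called 0 members over 24 to 30 h (1.06% of all genes) and 0 over 48 to 72 h (2.42%), with 1 and 3 at an unadjusted p under 0.05. For 36 of the 42 general genes the adult group of highest mean was 18 h, and for 29 the lowest was 48 h. These were not counted over all genes, so how far they are particular to the members is not known. On the second array of 48 h, 41 of the 42 lay below the first. In 30 members both arrays of 18 h lay above both of time 0, beside 25.5% of all genes, and in 3 both lay below, beside 19.6%.

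The size of this rise differed between pools. The median over the 42 general genes, set against time 0, was 0.81 and 0.32 in the pools of 18 h, 0.39 and -0.38 in the pools of 12 h, and 0.05 and -0.82 in the pools of 48 h. The low array of 48 h had the highest 3' to 5' ratios of the adult arrays. The low array of 12 h had ratios below those of the second array of 2 h, 0.32 and 1.74, but above those of its partner, -0.29 and 0.57. The arrays of 18 h had -0.44 and 0.58 (first) and -0.33 and 0.64 (second), near the low end of the adult arrays for Actb. The part of RNA quality was not tested. The count of 5 members at 12 to 18 h dropped to 1 when the second array of time 0 was left out and to 2 for the first of 18 h. It grew to 9 for the second of 12 h and to 10 for either of 48 h. It was 0 when the spread was taken from the compared arrays alone. Without the second arrays of 12 h and 48 h and the first of 10.5 days, an alternative chosen after seeing the data, 20 members were higher and 1 lower, and 14.7% of all genes were called.

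**Figure D4:**
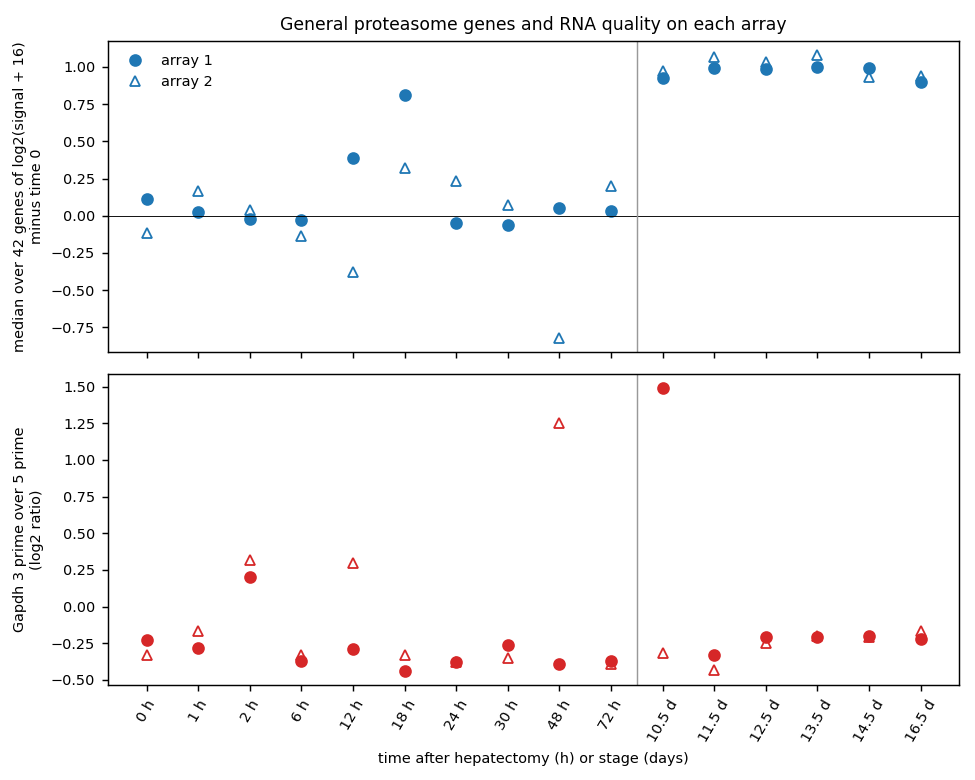
Upper panel: median over the 42 general proteasome genes of log2(signal + 16) minus time 0, for each array. Lower panel: log2 ratio of the 3' to the 5' probe set of Gapdh on the same arrays. Both arrays of 18 h lie above 0 (0.81 and 0.32), the second arrays of 12 h and 48 h lie at -0.38 and -0.82, and every embryonic array lies at 0.90 or above.

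Psma6, an alpha subunit, started from signals of 795 and 920 (time 0), reached 1471 and 1073 by 12 h, and peaked with 2292 and 1555 by 18 h. All 4 later arrays lay above both of time 0. The change at 12 to 18 h was 0.84 (SE 0.22, limma adjusted p = 0.0183), and the call was lost on leaving out either unoperated array (0.73 and 0.94), the first of 12 h (0.72) or the first of 18 h (0.70). By 24 and 30 h its signals were 1030, 1302, 1038 and 1077, still above time 0.

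Psmd12, a scaffold of the cap's lid, had signals of 649 and 482 before surgery, 895 and 851 by 12 h, and 1112 and 837 by 18 h. The 4 arrays lay above both of time 0, with a change of 0.70 (SE 0.16, limma adjusted p = 0.00525) that dropped to 0.49, with no call, once the second unoperated array was left out. At 24 and 30 h its signals of 497, 683, 558 and 595 overlapped time 0 again.

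Psmc4, a cap ATPase, had 665 and 480 before surgery, 772 and 602 by 12 h, which overlaps, and 1157 and 863 by 18 h, which does not (change at 12 to 18 h 0.54, SE 0.16, limma adjusted p = 0.0417). That call was lost under 18 of 42 alternatives, and the change was 0.31 on leaving out the second unoperated array. Psmd11, a lid subunit that stabilises the assembled cap, went from 990 and 1057 to 1630 and 1886 by 12 h, with 1768 and 1316 by 18 h (0.67, SE 0.18, limma adjusted p = 0.0176). Both groups lay above time 0, but averaging its probe sets gave a change of 0.07 with no call.

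Setting 12 to 18 h against 24 to 30 h, which leaves the time 0 arrays out, 4 members were higher and 0 lower (limma), beside 4.37% and 3.67% of all genes. They were Psmc4 (0.60, SE 0.13, limma adjusted p = 0.00616), Psmd12 (0.65, SE 0.13, limma adjusted p = 0.0024), the scaffold Psmd1 (0.53, SE 0.13, limma adjusted p = 0.0138) and Psmd14 (0.46, SE 0.14, limma adjusted p = 0.0467). The call of Psmd14 was lost under 27 of 42 alternatives. Leaving out the first array of 18, 24 or 30 h reduced the count of 4 to 2, while leaving out the second of 12 h raised it to 7 and either of 48 h to 9.

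Single times share the time 0 arrays, so their calls are given side by side. At 12 h, 2 members were higher (Psmd11 and Psmd12) and 2 lower (Psmb9 and the core chaperone Psmg1, which fell by 0.76, or by 0.41 with no call once the second array of 12 h was left out), beside 4.18% and 4.57% of all genes. At 18 h, 8 were higher (Psma6, Psma7, Psmb5, Psmc4, Psmd8, Psmd10, Psmd12 and Psmd14) and Psmb9 lower, beside 4.41% and 3.24%. Psmd8, the lid subunit that was not called in the embryo, had its adult high here, at 1516 and 1153 against 635 and 567 at time 0 (1.12, SE 0.30, limma adjusted p = 0.0233). The 9 calls of 18 h shrank to 2 once the second unoperated array was left out, to 1 for the first and 5 for the second of 18 h, and grew to 16 for either of 48 h. The 4 calls of 12 h shrank to 1 for either unoperated array or the second of 12 h. Limma called 0 members at 1, 2, 6, 30 and 72 h, beside 0.473%, 0.544%, 1.98%, 0.319% and 2.91% of all genes, and 1, 0, 1, 0 and 1 members had an unadjusted p under 0.05 there.

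Psmb9 ran against the general genes. Before surgery its signals were 250 and 199, after 1 h 193 and 177, after 2 h 216 and 206, and after 6 h 171 and 195. By 12 h they had dropped to 129 and 146, by 18 h to 110 and 116, and 24 h still gave 147 and 113, all below both unoperated arrays. The arrays of 1 h and 6 h lay below both as well. Later signals were 198 and 179 by 30 h, still below, 209 and 197 by 48 h, which overlap time 0, and 268 and 261 by 72 h, the last pair above both arrays of time 0. At 12 to 18 h Psmb9 fell by 0.77 (SE 0.12, limma adjusted p = 2.57e-04), and at 24 h by 0.72 (SE 0.14, limma adjusted p = 0.0109, beside 0.561% of all genes lower). The first held in every fit that left out 1 array. The second lost its call on leaving out the first unoperated array (-0.56) or the second of 24 h (-0.55).

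Psmb8 and Psmb10 were not called at any time. Psmb8 had signals of 270 and 164 before surgery, 171 and 82.2 by 12 h, 246 and 142 by 18 h, 163 and 120 by 24 h, and 308 and 286 by 72 h. Arrays of 12 and 18 h overlapped time 0, those of 24 h lay below it, and those of 72 h lay above. Psmb10 had 354 and 309 before surgery, 268 and 185 by 12 h, 372 and 277 by 18 h, and 243 and 216 by 24 h. The arrays of 12 and 24 h lay below time 0 and those of 18 h on both sides of it.

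Macrophage markers summed to 4058 and 4165 on the arrays of time 0 and to 3110 to 4132 on those of 12 and 18 h, and leukocyte markers to 2204 and 2441 and to 1890 to 3068. At 12 to 18 h, 2 macrophage markers were lower and 1 higher, and 1 leukocyte marker was higher, beside 4.81% of all genes lower and 5.22% higher. Their part in the dip of Psmb9 was not tested. Of the 25 interferon and antigen processing genes, 22 were not called at 12 to 18 h, beside the same shares of all genes. Gbp2 rose (0.78) while Tap2 fell by 0.69 and Ifit3 by 0.77. Tap1, the neighbour of Psmb9, showed 0.64 (limma adjusted p = 0.149), with signals of 76.3 and 54.1 at time 0 and 114 and 124 at 18 h, both above time 0.

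**Figure D5:**
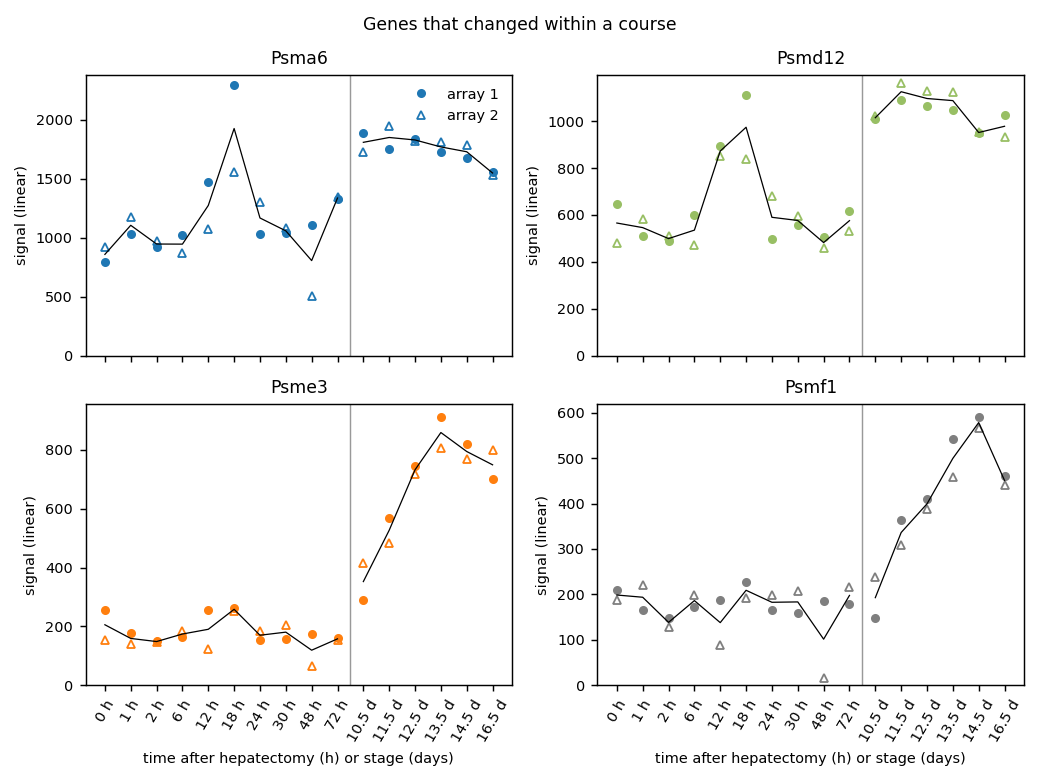
Signal (linear scale) of Psma6, Psmd12, Psme3 and Psmf1 on each of the 32 arrays. Symbols are the 2 arrays of a group and lines join group means. Psma6 and Psmd12 peak at 18 h in the adult course and have no called slope over the stages. Psme3 and Psmf1 climb from 10.5 days, and their lowest adult signals are on the second arrays of 12 h and 48 h.

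Taking the 9 times together, limma's F test picked 10 members, beside 17.7% of all genes: Psma6, Psmb9, Psmc2, Psmc4, Psmd4, Psmd8, Psmd10, Psmd11, Psmd12 and Psmd14. That count ranged from 3 without the first array of 18 h to 40 without the first array of 48 h, was 18 without the first array of 12 h, and was 6 without the second array of 1 or 2 h, either of 6 or 30 h, or the first of 72 h. For 48 h alone limma called 0 members (1.43% of all genes), with 12 at an unadjusted p under 0.05, and 29 once the first array was left out and the second stood alone.

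Within development, no slope was called from 10.5 to 16.5 days for most members. The slope per day was called for 6 of 49 members, 5 upward (16.2% of all genes) and 1 downward (11.4%). The median slope of the 42 general genes was -0.01, and of all genes 0.01. Psme3 climbed from 288 and 416 at 10.5 days over 569 and 485, then 746 and 719, to 913 and 805 at 13.5 days, and was at 820 and 769 and then 700 and 798 at the last stages. The arrays of 12.5 days and later all lay above those of 10.5 and 11.5 days. Its slope was 0.17 per day (SE 0.05, limma adjusted p = 0.00791), and 0.14 and not called without the first array of 10.5 days, or 0.15 and not called without the second of 16.5 days.

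Psmf1 climbed with it, from 148 and 237 at 10.5 days to 363 and 310, 410 and 389, 541 and 458 and then 590 and 566 at 14.5 days, before 461 and 441 at 16.5 days. Every later array lay above both of 10.5 days. The slope of 0.19 (SE 0.07, limma adjusted p = 0.0437) was not called under 27 of 42 alternatives. The cap chaperones Psmd10 and Psmd5 rose by 0.09 and 0.08 per day, and the thymus form Psmb11 by 0.08, at signals of 52.8 to 114. These calls were lost under 1, 24 and 7 of the 42 alternatives. Psma3 fell by 0.10 per day, from 2179 and 1996 at 10.5 days to 1485 and 1457 at 16.5 days, a call lost under 14 of them.

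Only Psme3 was called in the F test over stages, beside 20.8% of all genes, and its call was lost on leaving out the first pool of 10.5 or of 13.5 days. That count was 4 without the second array of 10.5 days, 2 without the second of 11.5 days, 5 without either array of 48 h, 3 without either of 12 h and 2 without either of 1 or 72 h. The 6 slopes called became 1 without the first array of 10.5 or either of 16.5 days, 2 without the first of 11.5 or the second of 14.5 days, and 3 without the second of 11.5 or the first of 12.5, 13.5 or 14.5 days. The first array of 10.5 days is the one with a Gapdh ratio of 1.49.

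Most measured partners outside the symbol rule were higher in the embryo too. Of 22 measured regulators and partners of the proteasome, 17 rose and 3 fell in the embryo against the adult, beside 39.7% and 37.1% of all genes, with a median of 0.66 against 0.01. Akirin2, which carries proteasomes into the nucleus, rose by 1.72, and the cap-bound ubiquitin hydrolases Uchl5 and Usp14 by 1.91 and 1.37, with no overlap between adult and embryonic arrays in any of these. Pomp, which closes the assembly of the core, rose by 0.42. Nfe2l1, the factor that raises proteasome genes when the particle is inhibited, fell by 1.18 (SE 0.32, limma adjusted p = 0.0021) with embryonic signals spread from 14.7 to 584. Its 2 arrays disagreed at 13.5 days (279 and 19.1), 14.5 days (254.5 and 14.7) and 16.5 days (18.9 and 293.5), but not at 12.5 days (118.0 and 117.6). At 10.5 days (376 and 584) and 11.5 days (549.5 and 322) no array lay below the adult range of 245 to 534. The other falls were Nfe2l3 and Zfand2a, whereas Nfe2l2 rose by 0.91. At 12 to 18 h after hepatectomy Zfand5, Txnl1 and Akirin2, all known to bind or move the particle, rose by 0.76, 0.64 and 0.45. Ubqln4, a shuttle for tagged proteins, fell by 0.43, and 18 of the 22 were not called. Of all genes 5.22% were higher and 4.81% lower. Of 6 measured genes of ubiquitin supply, 5 rose in the embryo, led by the deubiquitinase Usp7 (1.75), and 0 were called at 12 to 18 h.

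Other probe sets of the members gave a check on the choice. Of 54 that were not used, 38 had the same sign as the used one between embryo and adult. Of the 30 with a mean of 100 or more, 26 did and 4 went the other way. Only signs were compared, and sizes differed. A second set of Psma7 changed by 0.88 (used set 0.92), but one of Psmd4 by 0.10 (used set 0.96) and one of Psmc6 by 0.003 (used set 1.15). A set of Psma1 changed by -1.03 (used set 1.26). The dim tissue forms were both called in the embryo against the adult. Psma8 was higher (0.54, limma adjusted p = 4.58e-05), and Psmb11 was the third member called lower (-0.40, limma adjusted p = 3.15e-05). Psma8 ran from 15.9 to 47.8 in the adult and from 21.8 to 91.7 in the embryo, and Psmb11 from 65.2 to 156 and from 52.8 to 114, with overlap in both. Psme3ip1, which encodes a protein that binds Psme3, rose by 1.52 in the embryo without overlap, and Psmc3ip, a recombination protein, by 0.47.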

How the data were processed

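The authors deposited 1 intensity per probe set and array on a linear scale, for 45101 probe sets; for software, background treatment and normalization, nothing is stated by the sources used here. Total RNA was extracted with Trizol and 6 microg was labelled as biotinylated cRNA, per the labels' protocols. Array medians ran from 69.8 to 79.5, and each array had 2.54% to 4.02% of its values below 0. Values below 0 were set to 0, log2(value + 16) was taken and no further normalization was applied. This scale understates changes of dim genes. Symbols came from the platform annotation; 34958 probe sets had 1 gene, 932 had several and were left out.

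All 32 arrays entered 1 limma 3.58.1 model in R 4.3.3 with a term for each group and eBayes with a trend (residual degrees of freedom 16, prior 4.76). P-values were adjusted by Benjamini-Hochberg over 18194 genes and called at 0.05. Pair differences were tested in Python 3.11.15 with numpy 2.4.6 by exact permutation over groups. The fit was tested on simulated data. The number of arrays limits the precision. Members and lists were chosen with earlier results of these data known. Full values go to the catalytic pairs, then to the called members of largest rise or fall in each role. From each list, up to 4 genes of smallest p were to be named; B2m, Tap1, Irf1, Ifngr1, Ubd, Ube2l6, Pomp, Nfe2l1, Nfe2l3, Zfand2a and the single markers were named after their values were seen. Alternatives were other constants, quantile normalization, other probe sets, a filter, array weights, only the compared arrays, a replicate block and leaving out arrays.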

Additional observations from a re-analysis of the deposited data

How the results depend on the processing

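Directions of all called members held under every alternative. So did the changes of the catalytic pairs when 1 array was left out (-3.29 to -3.16, -2.05 to -1.92 and -0.83 to -0.68). For the embryo against the adult, Psma3 alone lost its call, under 1 of 42 alternatives. Calls against time 0 held less well, and their count fell most without the second unoperated array. There Psmb3 lost its call under 26 of 42 alternatives and Psma8 under 10 of 41. Counts for other comparisons moved as well. When 1 array was left out, the count was 0 at 1 to 6 h, 1 to 10 at 12 to 18 h, 0 to 1 at 24 to 30 h (1 without the first array of 24 h or either of 48 h), 0 to 5 at 48 to 72 h (5 without the first array of 48 h), 2 to 9 for 12 to 18 h against 24 to 30 h, 1 to 7 for the slope over stages, 3 to 40 for the F test over times and 0 to 5 for that over stages. With only the compared arrays in the fit it was 0 at 12 to 18 h, 0 for 12 to 18 h against 24 to 30 h, 14 for the slope, 3 for the F over times and 12 for the F over stages; at 12, 18 and 24 h alone it was 0, against 4, 9 and 1. Quantile normalization gave 1 at 48 to 72 h, 8 for 12 to 18 h against 24 to 30 h, 17 for the F over times and 2 for the F over stages. Array weights gave 9 for 12 to 18 h against 24 to 30 h, 20 and 5 for the F tests, and 1 at 12 h alone. A constant of 64 gave 1 at 24 to 30 h and 2 for the F over stages, the mean of probe sets 1 and 4, and a group mean of at least 100 gave 2 for the F over stages. Leaving out the second arrays of 12 h and 48 h and the first of 10.5 days together, chosen after seeing the data, gave 21 at 12 to 18 h, 26 at 18 h alone, 1 at 24 to 30 h, 21 for 12 to 18 h against 24 to 30 h, 29 for the F over times and 6 for that over stages. In that fit more of all genes were called as well, at each of these times and for 12 to 18 h against 24 to 30 h. For its F tests and for the other alternatives, no share of all genes is given here or above. How far the shifts in these counts are particular to the members is therefore not known. Apart from the fewer arrays, their cause was not tested.

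Replicate numbers did not pair the samples: over 120 pairs of groups, deviations of same-numbered arrays correlated at -0.36 to 0.56, with a median of -0.01 and 17 over 0.1. With the replicate block the counts were 5 at 12 to 18 h, 3 for 12 to 18 h against 24 to 30 h, 43 and 46 for the embryo against time 0 and the adult, 5 for the slope and 10 for the F over times.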
